A study of Mus musculus with 12 samples.

Results

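Expression of 10 genes of cellular iron traffic was followed across 12 mouse RNA-seq libraries. They comprise 5 genes of uptake (Tfrc, Trf, Slc11a2, Slc39a14 and Steap4), 3 of storage (Fth1, Ftl1 and Ncoa4) and 2 of export (Slc40a1 and Cp). The genes were chosen by name, with earlier results of these data known. Each was matched to its Ensembl row through GENCODE M21, and all 10 are among the 55487 genes counted. The libraries form 4 groups of 3. Wild-type Hepa1 cells, a hepatoma line of the mouse, and Bach1-/- primary mouse embryonic fibroblasts (MEFs) were each kept for 4 days in medium taken from immortalised MEFs. That medium came either from control cells or from cells in which Bach1 had been re-expressed, which the labels call ferroptotic. In every group the donor cells had conditioned DMEM with 10% fetal bovine serum, antibiotics and nonessential amino acids for 48 h. Every group also received 0.1 mM 2-ME (2-mercaptoethanol) and 0.4 mg/mL vitamin E, and fresh medium each day. Hepa1 is 1 line, the MEFs differ from it in cell type, culture history and Bach1 genotype together, and no Bach1 wild-type MEFs are among the groups.

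Iron reaches most cells bound to the serum protein transferrin, which the transferrin receptor carries into endosomes. There a reductase and a divalent metal transporter release it to the cytosol. Surplus iron is held in ferritin shells built of heavy and light subunits, and leaves the cell through ferroportin with the help of a copper oxidase. When iron is scarce, iron regulatory proteins bind a hairpin, the iron-responsive element, in several of these mRNAs. Binding in the 5′ UTR blocks translation and binding in the 3′ UTR of Tfrc protects the mRNA from decay, so transcript levels report control through the 3′ UTR more directly than control through the 5′ UTR.

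The hairpins are shown because they divide the members in which the search found them by where they lie. The annotated coding transcripts (GRCm38) were searched for a bulged C, a stem of 5 base pairs (G-T pairs allowed) and the loop CAGTGN, where the last base is A, C or T. The capitals mark the loop, and each stretch of 30 bases reads 5′ to 3′ on the gene's strand.
Fth1: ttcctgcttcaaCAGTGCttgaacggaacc
Ftl1: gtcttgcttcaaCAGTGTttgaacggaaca
Slc40a1: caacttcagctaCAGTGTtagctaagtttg
Tfrc element 1: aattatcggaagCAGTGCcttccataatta
Tfrc element 2: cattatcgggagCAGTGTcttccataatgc
Tfrc element 3: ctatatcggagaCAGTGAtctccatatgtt
Tfrc element 4: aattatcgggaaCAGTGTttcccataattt

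The hairpin is known from several of these mRNAs, so the shares that follow are no test of the members. Such a match was found in 4 of the 10 members and in 222 of 21901 coding genes (1.01%). In Fth1 (chr19:9982732-9982761, plus strand), Ftl1 (chr7:45459778-45459807, minus strand) and Slc40a1 (chr1:45925464-45925493, minus strand) it lay in the 5′ UTR. Fth1 and Ftl1 had the same stem letters, ttcaa before the loop and ttgaa after it. Tfrc had 4 matches in its 3′ UTR on chromosome 16, plus strand, at chr16:32631219-32631248, chr16:32631598-32631627, chr16:32631663-32631692 and chr16:32631710-32631739. In the other 6 members these letters were not in the annotated coding transcripts. The search allows no further bulge in the stem, so a member without a match may still carry such an element. A match is a description of the sequence.

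Reads assigned to genes numbered 18.58 M to 23.4 M per library. Levels are given as CPM, the reads of a gene relative to the library total, normalised between the 6 libraries of a cell type by the TMM method unless stated otherwise. A gene was called changed at a Benjamini-Hochberg adjusted p under 0.05 over all tested genes (edgeR quasi-likelihood test). Whether the replicates were separate cultures is not stated in the labels. P-values therefore refer to the spread among these libraries, which may be only technical. The MEF libraries held all 12 listed fibroblast markers, which summed, without TMM scaling, to 50600-52900 CPM in control and 46000-47100 CPM in ferroptotic medium. Within that list Postn went from 1060 to 3330 CPM, Pdgfra from 411 to 250 CPM and Thy1 from 520 to 312 CPM. Hepa1 also had reads of 9 fibroblast markers in control medium and 10 in ferroptotic medium, summing to 1820-2140 and 2750-2820 CPM, mostly Col1a1 (1490 and 2280 CPM), and its Dcn (289 CPM) exceeded that of MEFs (3.66 CPM). The part of these shifts in the members' changes was not tested. Hepa1 held the hepatocyte genes Alb and Afp, whereas Ttr, Apoa1 and Apoc3, other hepatocyte genes, had no reads in any Hepa1 library. Of 10 listed erythroid markers, the globin genes had no reads in the MEF libraries, but Epor went from 5.69 to 10.7 CPM there. The erythroid list summed to 5.14-6.92 CPM in MEF control and 9.93-11.9 CPM in MEF ferroptotic medium, and to 1.3-1.93 and 2.31-2.55 CPM in Hepa1. The part of this erythroid shift in the members' changes was not tested. Bach1 had 77.4 ± 4.78 and 75.2 ± 2.75 CPM in the cells labelled Bach1-/-, in control and ferroptotic medium, and 142 ± 4.22 and 121 ± 5.5 CPM in Hepa1 (SD, n = 3). These counts cover the whole gene, so they do not check the deletion. In 1 library, Hepa1 ferroptotic replicate 3, 36 MEF genes stood at 0.116% of their MEF level, against 0.00426 to 0.0153% in the other Hepa1 libraries. That share of MEF RNA would make up at most 0.199% of any member's value there, and without this library each called member stayed called with the same sign in each comparison that used it.

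All 10 members passed the count filter in both cell types. In Hepa1, ferroptotic medium raised 6 members and lowered 3, where 58.1% of all tested genes were called (29.3% higher, 28.8% lower). In MEFs 6 were higher and 2 lower, where 55.0% of genes were called (27.8% higher, 27.2% lower). Fth1, Slc40a1, Steap4 and Cp were called higher in both cell types, a pattern of 9.86% of the 12042 genes tested in both. Tfrc, Ftl1, Trf and Slc39a14 were called in opposite directions (15.3% of those genes), and no member was lower in both (10.4%). The median size of the members' log2 changes was 0.57 in Hepa1 and 0.85 in MEFs, where it was 0.22 and 0.20 over all tested genes. Because the members were chosen with earlier results of these data known, none of these counts, patterns and sizes is a test of them. The 2 medium groups did not overlap for 9 members in Hepa1, as for 62.6% of all genes, and for 8 in MEFs, as for 60.2%. In bulk RNA, fewer cells of a kind and less RNA per cell cannot be told apart.

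**Figure D1:**
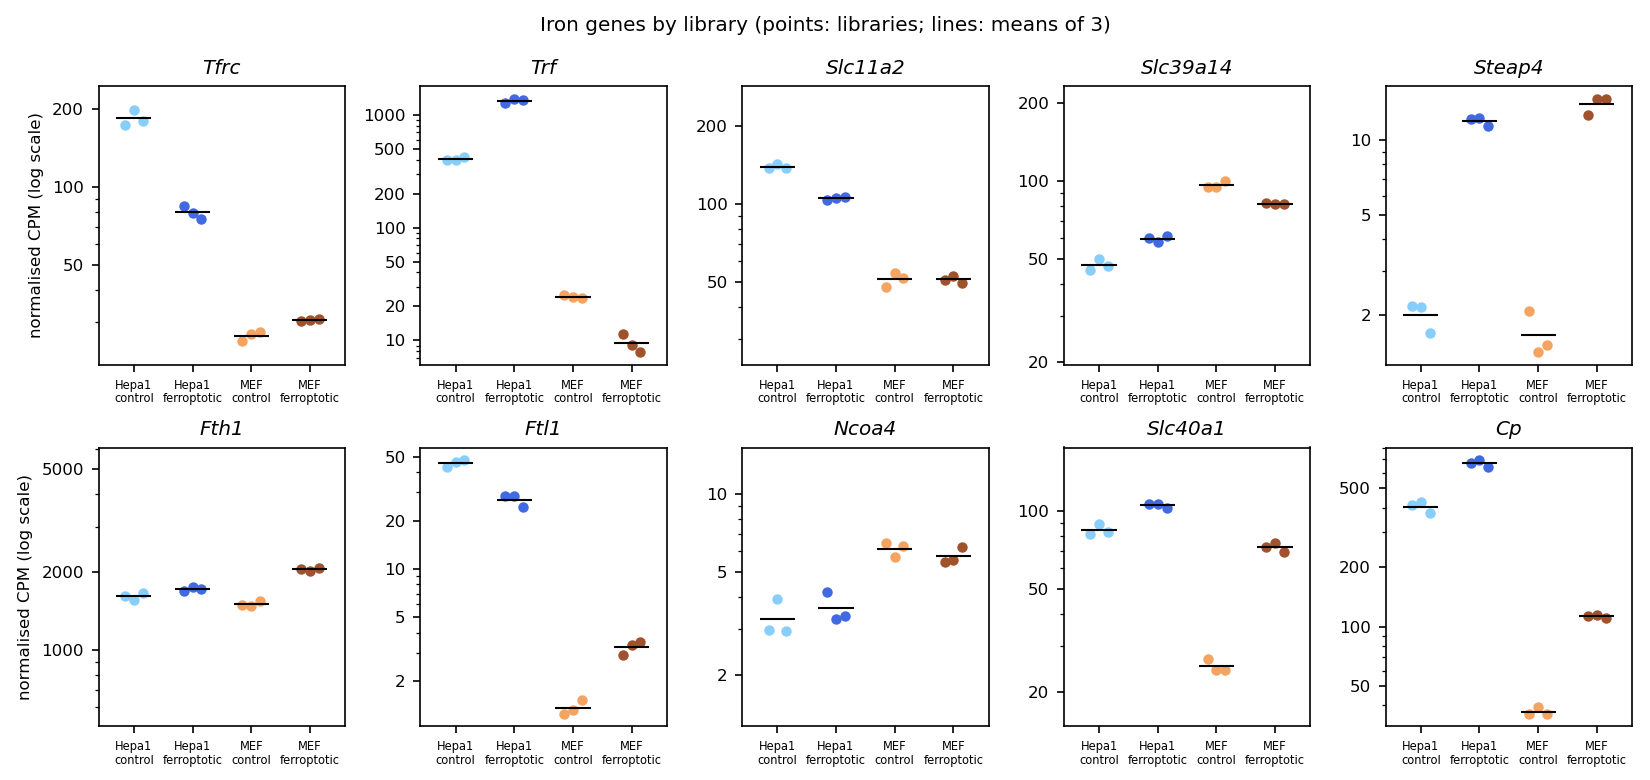
Normalised CPM (log axis) of the 10 members in each library, with points for the libraries and lines for the means of 3; the CPM are scaled within each cell type. The medium groups do not overlap for 9 members in Hepa1 and 8 in MEFs, and they overlap for Ncoa4 in both and for Slc11a2 in MEFs.

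Transferrin receptor 1 (Tfrc, ENSMUSG00000022797, chr16:32608920-32632794) fell in Hepa1 and rose slightly in MEFs. In Hepa1 it stood at 173.7, 198.7 and 179.5 CPM in control medium and at 84.1, 79.2 and 75.4 CPM in ferroptotic medium. Every ferroptotic library lay below every control library. The log2 change was -1.21 (95% interval -1.31 to -1.11, adjusted p = 1.87e-18), a 2.31-fold lower level. In MEFs the control libraries stood at 25.3, 26.9 and 27.5 CPM and the ferroptotic ones at 30.3, 30.6 and 30.7 CPM. These ranges did not overlap either, but the log2 change was only 0.20 (0.10 to 0.31, adjusted p = 0.00105). Among the members Tfrc alone matched the strict hairpin pattern in the 3′ UTR, a search that can miss elements of another shape. The sign of the Tfrc change differed between the cell types.

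Transferrin itself (Trf, ENSMUSG00000032554, chr9:103204001-103230444), the serum iron carrier secreted mainly by liver, rose in Hepa1 and fell in MEFs. Its Hepa1 levels were 395.6, 398.5 and 419.5 CPM in control medium and 1256, 1384 and 1334 CPM in ferroptotic medium, a 3.28-fold rise (log2 1.71, 1.64 to 1.79, adjusted p = 3.2e-24). MEFs had 25.5, 24.1 and 23.9 CPM in control medium and 11.4, 9.19 and 7.86 CPM in ferroptotic medium. The MEF change was -1.37 on the log2 scale (-1.53 to -1.22, adjusted p = 2.65e-21). The highest MEF ferroptotic library was below the lowest MEF control library, and the order was the opposite in Hepa1. A read-through gene of GENCODE M21, Gm20425, shares 79.8% of the 50-base runs of Trf and is not among the genes counted. Alb, the serum albumin gene, moved with Trf in Hepa1, from 33.6 ± 3.64 to 311 ± 13.8 CPM without TMM scaling (SD, n = 3). The summed hepatocyte markers went from 89.2-96.1 to 368-393 CPM, with 9 of 14 markers at 0 in ferroptotic medium, while Afp went from 58.7 to 66.8 CPM. The part of this shift in the Trf change was not tested.

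Slc11a2 (ENSMUSG00000023030, chr15:100387898-100425072), the divalent metal transporter DMT1, fell in Hepa1 and was not called in MEFs. Its Hepa1 levels were 137.1, 142.7 and 137.9 CPM, then 103.2, 105.0 and 106.8 CPM in ferroptotic medium (log2 -0.41, -0.48 to -0.33, adjusted p = 3.07e-10). MEFs held 47.7, 54.1 and 51.9 CPM in control and 50.9, 52.6 and 49.5 CPM in ferroptotic medium. The MEF groups overlapped, and the log2 difference of -0.01 had an interval of -0.10 to 0.08 (adjusted p = 0.914). Gm5475 is annotated across it on the other strand and had 0 to 5 reads per library. Whether strand was used in counting is not given.

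Slc39a14 (ENSMUSG00000022094, chr14:70303469-70351425) encodes ZIP14, which takes up iron not bound to transferrin. It rose in Hepa1 from 47.4 ± 2.44 CPM (SD, n = 3) in control medium to 60.3, 57.9 and 61.4 CPM (log2 0.34, 0.24 to 0.44, adjusted p = 1.33e-06). In MEFs it fell from 95.1, 95.1 and 100.1 CPM to 82.0, 81.5 and 81.2 CPM (log2 -0.25, -0.31 to -0.18, adjusted p = 1.88e-08). Neither pair of ranges overlapped, and the changes were small, 1.26-fold up and 1.19-fold down.

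Steap4 (ENSMUSG00000012428, chr5:7960457-7982213), a metalloreductase of the STEAP family, showed the largest fold rise of the 10 in each cell type, from a low level. Hepa1 libraries held 2.16, 2.14 and 1.69 CPM in control medium and 12.1, 12.3 and 11.4 CPM in ferroptotic medium. The reads behind these values numbered 32 to 42 and then 231 to 243 per library. MEFs held 2.06, 1.41 and 1.51 CPM, then 12.6, 14.7 and 14.6 CPM. The rise was 5.96-fold in Hepa1 (95% interval 4.97 to 7.13, adjusted p = 3.82e-16) and 8.41-fold in MEFs (7.05 to 10.0, adjusted p = 2.22e-27). Levels in the 2 cell types were close in control medium, where the log2 difference, MEF minus Hepa1, was 0.28 (-0.12 to 0.69, adjusted p = 0.18), and -0.28 without TMM scaling. STEAP4 is also known from adipose tissue, and adipocyte markers moved with it in MEFs. Their summed level went from 65.2-69.0 to 243-259 CPM, with Lpl at 30.1 and then 157 CPM, Fabp4 at 19.1 and 48.5 CPM and Pparg at 18.2 and 44.8 CPM. At low levels, Adipoq went from 0.0159 to 0.522 CPM, Cfd from 0.0317 to 0.671 CPM and Plin1 from 0.0159 to 0.28 CPM there. Cidec went from 0.0147 to 0.0295 CPM, and Lep had no reads in MEFs. In Hepa1 the adipocyte sum of 520-560 and then 723-751 CPM was nearly all Lpl (541 and 734 CPM). The part of these shifts in the Steap4 change was not tested.

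**Figure D2:**
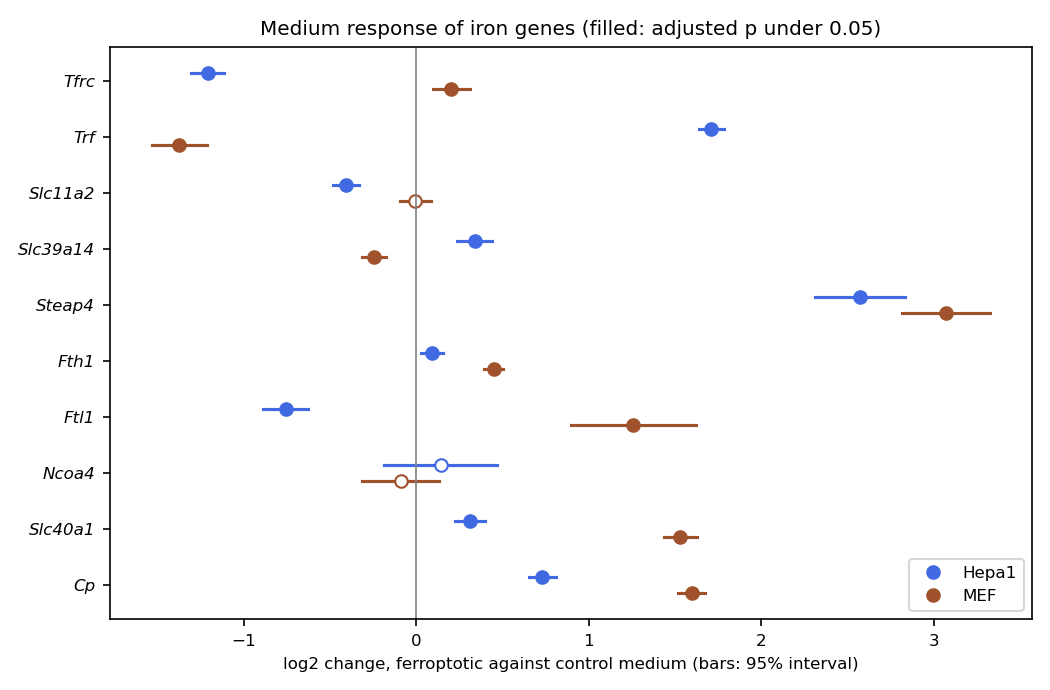
Log2 change of each member between ferroptotic and control medium in Hepa1 and in MEFs, with 95% intervals as bars and filled points where adjusted p was under 0.05. Steap4, Slc40a1, Cp and Fth1 lie right of 0 in both cell types, while Tfrc and Ftl1 lie left of 0 in Hepa1 and right of 0 in MEFs, and Trf and Slc39a14 the other way round.

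Among the storage genes, ferritin heavy chain (Fth1, ENSMUSG00000024661, chr19:9980598-9985098), the subunit that oxidises iron, rose in both cell types. In Hepa1 the levels were 1624, 1562 and 1665 CPM in control medium and 1698, 1750 and 1717 CPM in ferroptotic medium. The ranges came close without overlapping, and the log2 change was 0.09 (0.03 to 0.15, adjusted p = 0.0134). Without Hepa1 ferroptotic replicate 2 it was 0.08 and missed the threshold (adjusted p = 0.102). In MEFs Fth1 went from 1500, 1479 and 1544 CPM to 2066, 2029 and 2081 CPM, a log2 change of 0.45 (0.39 to 0.50, adjusted p = 2.19e-20).

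Ferritin light chain (Ftl1, ENSMUSG00000050708, chr7:45457944-45459884), the subunit that helps the iron core form, fell in Hepa1 and rose in MEFs. Hepa1 held 43.1, 46.2 and 47.6 CPM, then 28.4, 28.4 and 24.2 CPM in ferroptotic medium (log2 -0.76, -0.89 to -0.63, adjusted p = 3.04e-11). MEFs held 1.25, 1.32 and 1.51 CPM, then 2.90, 3.36 and 3.50 CPM (log2 1.26, 0.89 to 1.62, adjusted p = 4.13e-08), from 26 to 31 and 64 to 84 reads. Ranges did not overlap in either cell type. These counts are uncertain: 90.6% of the 50-base runs of the Ftl1 transcript also occur in other genes, among them Ftl1-ps1, Gm15590 and Gm10252, and reads that map to several places were not counted. Adding the reads counted to all genes that share sequence gave -0.70 in Hepa1 and 1.12 in MEFs. This sum also lacks the reads that map to several places, so it cannot show how they would change the Ftl1 values. For Fth1 the shared part was 6.59%, all in Gm6977.

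Ncoa4 (ENSMUSG00000056234, chr14:32159865-32179855), the cargo receptor that delivers ferritin to lysosomes for iron release, was not called in either cell type. It had 56 to 84 reads per Hepa1 library and 121 to 150 per MEF library. The Hepa1 values were 2.98, 3.92 and 2.95 CPM in control and 4.20, 3.29 and 3.38 CPM in ferroptotic medium, and the groups overlapped. The log2 difference was 0.14 (-0.19 to 0.47, adjusted p = 0.474). MEFs held 6.47, 5.70 and 6.30 CPM, then 5.48, 5.56 and 6.24 CPM (log2 -0.09, -0.31 to 0.13, adjusted p = 0.506). Of its 50-base runs, 43.1% also occur in the processed pseudogene Gm6768, which took more reads than Ncoa4 itself in every library. With the reads of both added, Hepa1 passed the test (log2 0.30, adjusted p = 0.000146) and MEFs did not (0.01, adjusted p = 0.918). The result thus depends on whether the reads of Gm6768 are included. Reads that map to several places were not counted, and whether the reads placed at Gm6768 came from Ncoa4 transcripts was not tested.

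Both export genes rose in both cell types. Slc40a1 (ENSMUSG00000025993, chr1:45908068-45926523) encodes ferroportin, the known cellular iron exporter. In Hepa1 it went from 81.6, 89.2 and 83.0 CPM to 106.9, 106.4 and 102.4 CPM (log2 0.31, 0.23 to 0.40, adjusted p = 3.25e-07). The MEF control libraries held 26.8, 24.2 and 24.2 CPM and the ferroptotic ones 72.6, 75.3 and 69.5 CPM. That is a 2.89-fold rise (log2 1.53, 1.44 to 1.63, adjusted p = 8.49e-33), with every ferroptotic library above every control library.

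Cp (ENSMUSG00000003617, chr3:19957054-20009145) encodes ceruloplasmin, the copper oxidase that readies exported iron for transferrin. Hepa1 libraries held 410.7, 424.2 and 373.9 CPM in control medium and 672.8, 693.9 and 641.5 CPM in ferroptotic medium, a 1.66-fold rise (1.57 to 1.76, adjusted p = 2.59e-15). In MEFs the values were 36.4, 39.1 and 36.3 CPM and then 113.2, 114.5 and 110.6 CPM, a 3.03-fold rise (2.87 to 3.20, adjusted p = 2.06e-37). Hps3 is annotated across Cp on the other strand. Macrophages are a known site of ferroportin, and their markers were low in MEFs: the list summed to 7.91-9.84 CPM in control and 10.4-11.9 CPM in ferroptotic medium, with Adgre1, Ptprc, the C1q genes, Fcgr1 and Tyrobp at 0. In Hepa1 the macrophage list summed to 43.2-49.0 and then to no more than 23.9 CPM, with Ptprc and Tyrobp at 0. Its members went both ways there: Cd68 from 24.8 to 3.6 CPM, Lyz2 from 1.59 to 3.45 CPM and Adgre1 from 0.0336 to 2.02 CPM. In MEFs Lyz2 went from 1.99 to 5.17 CPM. The part of these shifts in the export genes' changes was not tested.

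The difference between the responses of the cell types, MEF minus Hepa1, was tested by the interaction term of a model of the 12 libraries. It was called for 8 members, 6 higher and 2 lower, where 44.2% of 15627 tested genes were called (20.9% higher, 23.3% lower). Trf had the widest gap, -3.09 on the log2 scale (-3.27 to -2.90, adjusted p = 3.4e-29). Ftl1 followed at 2.01 (1.64 to 2.39), within the limits of its shared sequence, then Tfrc at 1.41 (1.26 to 1.56, adjusted p = 1.48e-20). The export genes both rose more in MEFs, by 1.21 for Slc40a1 (1.08 to 1.35, adjusted p = 5.65e-20) and 0.86 for Cp (0.74 to 0.99, adjusted p = 3.48e-16). Fth1 rose more in MEFs by 0.36 (0.25 to 0.46). Slc11a2 differed by 0.40 (0.27 to 0.52, adjusted p = 4.95e-07) and Slc39a14 by -0.59 (-0.71 to -0.46). For Steap4 the difference of 0.50 (0.06 to 0.94) missed the threshold (adjusted p = 0.0608), and it passed when any 1 of 3 libraries was left out: Hepa1 control replicate 3 (0.60, adjusted p = 0.0346), MEF control replicate 1 (0.68, adjusted p = 0.0193) or MEF ferroptotic replicate 1 (0.57, adjusted p = 0.0337). Ncoa4 was not called (-0.23, -0.62 to 0.15, adjusted p = 0.352), but was with the reads of Gm6768 added (-0.30, adjusted p = 0.0107).

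Ratios of reads within a library do not depend on scaling between libraries. Hepa1 had 107.0, 127.2 and 107.8 Tfrc reads per 1000 Fth1 reads in control medium and 49.5, 45.3 and 43.9 in ferroptotic medium, a log2 difference of -1.30. In MEFs the ratio was 16.8, 18.2 and 17.8 and then 14.7, 15.1 and 14.7, a log2 difference of -0.25. Relative to Fth1, Tfrc was thus lower in ferroptotic medium in both cell types, with no overlap, although the Tfrc level alone was higher in MEFs. Ftl1 reads per 1000 Fth1 reads went from 28.2 ± 1.56 to 15.7 ± 1.40 in Hepa1 and from 0.901 ± 0.0752 to 1.58 ± 0.154 in MEFs (SD, n = 3). Ftl1 reads that map to several places were not counted, so its ratio does not give the proportion of the subunits' transcripts. Each of these 4 ratios gave p = 0.1 in a two-sided exact permutation test, the smallest that 3 against 3 libraries allow.

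**Figure D3:**
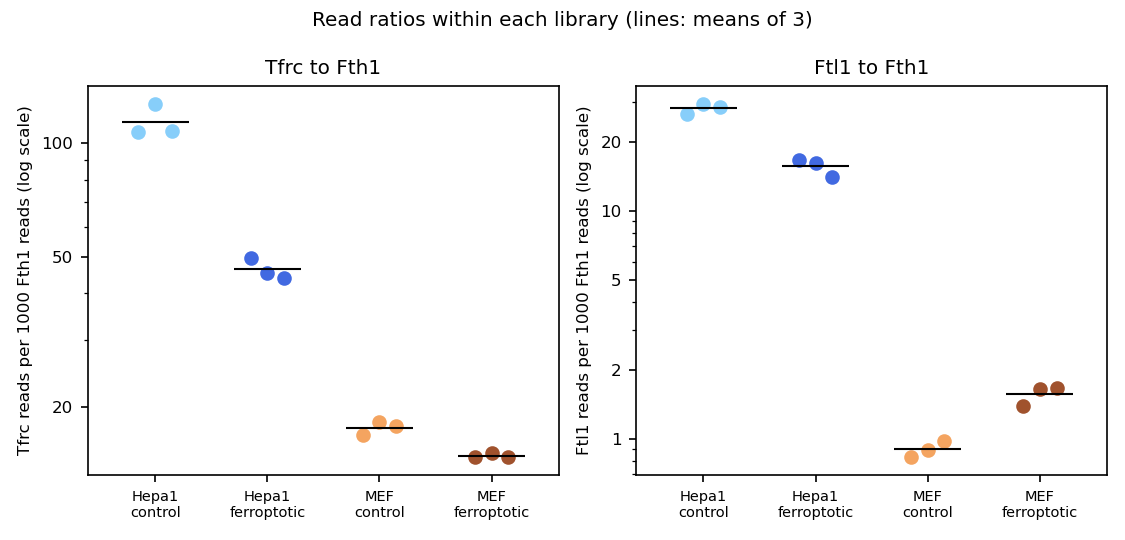
Reads of Tfrc and of Ftl1 per 1000 Fth1 reads in each library (log axis), with points for libraries and lines for the means of 3 per group. The Tfrc ratio is lower in ferroptotic medium in both cell types, and the Ftl1 ratio is lower in Hepa1 and higher in MEFs. Ftl1 reads that map to several places were not counted.

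Levels of different genes were compared per kilobase of annotated exons, with all 12 libraries scaled together. Fth1 had the highest level per kilobase in all 4 groups, at 385 ± 12.4 and 409.6 ± 7.11 CPM per kb in Hepa1 (control, then ferroptotic medium) and at 527 ± 10.3 and 718 ± 10.0 CPM per kb in MEFs (SD, n = 3). Its exon length includes retained introns, so this level is a low estimate. Trf ranked next in Hepa1 with 101 and 329 CPM per kb. In MEFs Trf had 8.95 and 3.46 CPM per kb. Slc39a14 led the remaining members in MEF control medium with 11.1 CPM per kb, and Cp did so in MEF ferroptotic medium with 14.3. Ncoa4 was lowest in Hepa1 (0.290 and 0.319 CPM per kb) and in MEF ferroptotic medium (0.744), and Steap4 in MEF control medium (0.638). The place of Ncoa4 is uncertain. It had 56 to 77 reads per Hepa1 control library, and 416 to 436 with the reads of Gm6768 added. Its annotated exons cover 9.365 kb, while its longest coding transcript has 4065 bases.

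**Figure D4:**
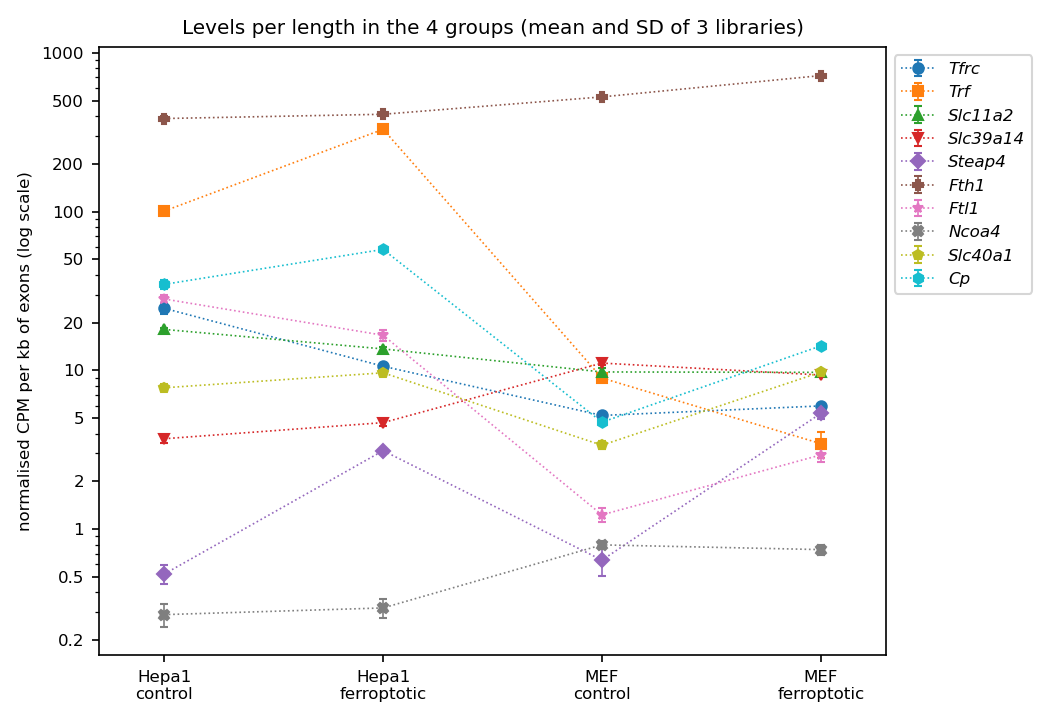
Normalised CPM per kilobase of exons (log axis) for the 10 members in the 4 groups, as mean and SD of 3 libraries; dotted lines only join the points of a gene. Fth1 is highest in each group, and Trf runs from 329 CPM per kb in Hepa1 ferroptotic medium to 3.46 in MEF ferroptotic medium.

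In the same 12-library scale, MEFs differed from Hepa1 in 9 members in control medium, 3 higher and 6 lower (86.6% of all genes were called, 46.0% higher and 40.7% lower). In ferroptotic medium 4 were higher and 5 lower (88.2%, 46.7% and 41.5%). The 2 cell types did not overlap for 9 members in either medium, as for 86.4% of all genes in control medium and 89.1% in ferroptotic medium. Trf was 11.3-fold lower in MEFs in control medium and 95.7-fold lower in ferroptotic medium. Cp was 7.37-fold and 4.05-fold lower, and Tfrc 4.73-fold and 1.78-fold lower. Slc39a14 was higher in MEFs, by 1.58 and 1.00 on the log2 scale. Ftl1 was 22.8-fold and 5.65-fold lower, within the limits of its shared sequence. Slc40a1 was lower in MEFs in control medium (log2 -1.20) and level with Hepa1 in ferroptotic medium (0.01, -0.07 to 0.10, adjusted p = 0.783).

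Scaling matters for these contrasts between cell types, since without TMM the median of all genes shifted by -0.56 in control and -0.54 in ferroptotic medium. Without scaling, Fth1 in control medium turned from 0.45 to -0.11 and Slc40a1 in ferroptotic medium from 0.01 to -0.53. Ncoa4 in ferroptotic medium went from 1.22 to -0.12 with the reads of Gm6768 added. The call of Ncoa4 in control medium has the same limit. Alone it had 58, 77 and 56 reads in Hepa1 control and 135, 125 and 129 in MEF control libraries. With the reads of Gm6768 added, these were 416, 436 and 429 in Hepa1 and 398, 349 and 327 in MEFs. Ordered over the 4 groups, neighbouring groups overlapped for Slc40a1 (MEF and Hepa1 ferroptotic), Slc11a2 (MEF control and ferroptotic), Steap4 (MEF and Hepa1 control) and Ncoa4 (the media within each cell type). All other neighbours were apart.

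Of 97 other iron genes listed by role, 76 were tested in Hepa1, with 24 higher and 24 lower, and 83 in MEFs, with 25 higher and 25 lower. These shares, 63.2% and 60.2% called, lie near those of all tested genes (58.1% and 55.0%). Their median log2 change was -0.03 and -0.02. For the difference between the cell types, 21 of 84 were called higher in MEFs and 20 lower, 48.8% against 44.2% of all genes. Among uptake genes 4 rose and 3 fell of 9 in Hepa1, and 5 rose and 5 fell of 13 in MEFs. Lcn2, lipocalin 2, which binds iron-laden siderophores, fell in Hepa1 from 325.4 to 103.4 CPM (log2 -1.66, adjusted p = 3.14e-23) and in MEFs from 7.49 to 2.50 CPM (log2 -1.58, adjusted p = 3.22e-15). Scara5, a ferritin receptor, rose in MEFs from 43.9 to 198.0 CPM (log2 2.17, adjusted p = 1.19e-43) and had no reads in 5 Hepa1 libraries and 3 reads in Hepa1 ferroptotic replicate 3. Other STEAP reductases went against Steap4 in MEFs: Steap3 fell from 383.4 to 232.6 CPM (log2 -0.72) and Steap2 from 89.3 to 50.3 CPM (log2 -0.83). Slc39a8, the ZIP8 transporter akin to Slc39a14, fell in both cell types (log2 -0.41 and -0.71).

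Among other storage genes and iron chaperones, 3 rose and 2 fell of 5 in each cell type. Pcbp2, a chaperone that hands iron to ferritin, rose by 0.33 on the log2 scale in Hepa1 and changed by -0.30 in MEFs. Herc2, part of the ligase that degrades NCOA4, changed by -0.46 and 0.28. Of 3 tested export genes, 0 rose and 1 fell in Hepa1, and 1 rose and 1 fell in MEFs. Nedd4l fell in both (log2 -0.35, adjusted p = 1.68e-09, and -0.45, adjusted p = 1.59e-12). Heph (hephaestin, an oxidase related to ceruloplasmin) rose in MEFs (log2 0.46, adjusted p = 2.92e-06) and stood at -0.10 in Hepa1 (adjusted p = 0.124). Hamp, which encodes the ferroportin ligand hepcidin, had 0 reads in all libraries. Of the hepcidin regulators, 2 rose and 4 fell of 9 in Hepa1 and 3 rose and 4 fell of 11 in MEFs. There Id1, a target of BMP signals, rose in both cell types (log2 0.91 and 1.64), and Smad7, an inhibitor of those signals, fell in both (-0.94 and -0.34). Bmpr2 also fell in both (-0.47 and -0.21), while Neo1 and Acvr2a fell in Hepa1 (-0.14 and -0.19) and rose in MEFs (0.34 and 0.39). Whether BMP signals changed was not tested.

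Among the genes that sense cellular iron and other hairpin mRNAs, 2 rose and 3 fell of 9 in Hepa1 and 4 rose and 2 fell of 9 in MEFs. Aco1, iron regulatory protein 1, rose by 0.10 on the log2 scale in Hepa1 (adjusted p = 0.02) and 0.18 in MEFs (adjusted p = 2.44e-05). Ireb2, iron regulatory protein 2, was not called (-0.03, adjusted p = 0.559, and 0.03, adjusted p = 0.493). Fbxl5, the ligase subunit that senses iron and degrades that protein, fell in MEFs from 71.6 to 43.5 CPM (log2 -0.72, adjusted p = 2.39e-21) and in Hepa1 by 0.14 on the log2 scale (adjusted p = 0.0189). Epas1, a hypoxia factor whose mRNA carries a hairpin, rose in MEFs from 35.5 to 104.2 CPM (log2 1.55, adjusted p = 1.38e-35) and was not called in Hepa1 (0.20, adjusted p = 0.0817).

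Mitochondrial iron genes had 7 higher and 5 lower of 23 in Hepa1 and 6 higher and 5 lower of 23 in MEFs. Slc25a37 (mitoferrin 1) changed by -0.76 in Hepa1 and 0.44 in MEFs on the log2 scale, a difference of 1.19 (adjusted p = 1.01e-16), and Abcb10 fell in MEFs (log2 -0.79). For cytosolic iron-sulfur assembly the counts were 2 higher and 2 lower of 9, then 1 higher and 4 lower of 9. Heme genes had 4 higher and 4 lower of 9 in Hepa1 and 2 higher and 2 lower of 10 in MEFs. Hmox1, which frees iron from heme, had the same signs as Tfrc and Ftl1: it went from 729.0 to 354.3 CPM in Hepa1 (log2 -1.04) and from 1911 to 3262 CPM in MEFs (log2 0.77), a difference of 1.81 (adjusted p = 4.09e-29).

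**Figure D5:**
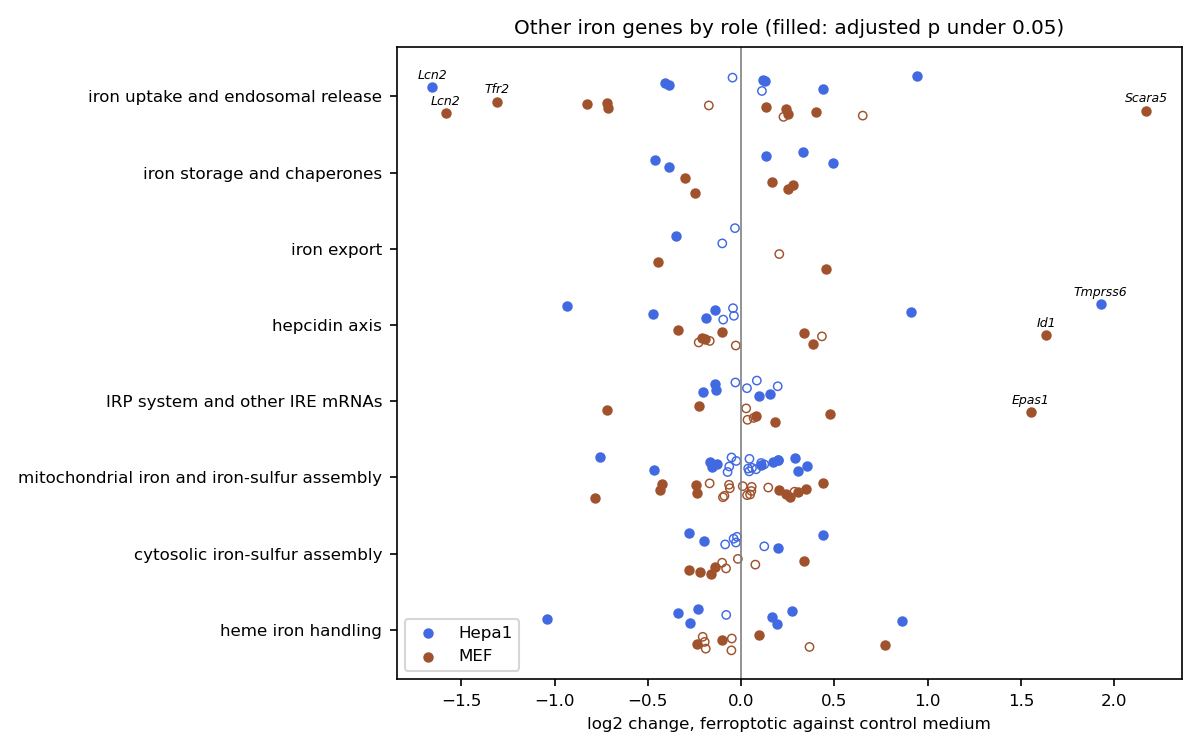
Log2 change between ferroptotic and control medium for other iron genes, by role, 76 tested in Hepa1 and 83 in MEFs; filled points have an adjusted p under 0.05. In MEFs each role holds genes on both sides of 0, with Scara5 (2.17) far right in MEFs and Lcn2 (-1.66 in Hepa1) far left.

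For each member, the protein-coding genes whose levels ran most like it were found by Pearson's r of log2(CPM + 0.5) centred within each cell type. The search covered 9830 genes over the 12 libraries, whose points share 2 cell types and 2 media. After this centring r mainly reflects the medium shift of a gene in each of the 2 cell types. Tfrc ran most like Cstb (r = 0.995) and Ank2 (0.994), Fth1 like Cdkn1a (0.992) and Gstm1 (0.991), and Ftl1 like Abcc4 (0.983) and Gnpda1 (0.982). Slc40a1 ran most like Lpl (0.996), the lipase given above among the adipocyte markers, and Lmo7 (0.995). Trf ran most like Creb3l2 (0.993) and Pcbp2 (0.988), and Steap4 like Ptprq (0.995) and Scd2 (0.993). For Cp the nearest were Exoc4 (0.996) and Sesn2 (0.995), for Slc11a2 Tagln2 (0.975), and for Slc39a14 Arl1 (0.987). The nearest to Ncoa4, Micu3, reached only 0.858.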

How the data were processed

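Raw read counts per Ensembl gene were deposited by the authors as 1 file per sample and 1 series table, and 0 values differ between them. Tools named, without roles, per the submitters' processing notes were STAR 2.7.10a, HTSeq 0.9.1, Trimmomatic 0.39 and FastQC 0.11.9, with the build GRCm38. Per the labels' protocols, the NEBNext Ultra II kit was used on 100 ng of RNA. The annotation release, and whether strand was used in counting, are items not given in the sources used here. Multi-mapped reads were not counted, and 5 summary lines (2.00 to 2.58% of reads on no gene, 3.66 to 4.03% ambiguous) were set apart. Gene names, coordinates and transcripts came from GENCODE M21, which named 55227 genes.

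Groups came from the sample titles. Each cell type's 6 libraries were fitted in edgeR 4.0.16 (R 4.3.3, quasi-likelihood test) after filterByExpr and TMM. The interaction and the contrasts between cell types used all 12 libraries. Intervals are at 95%. Scripts were tested on simulated data. Alternatives were DESeq2 1.42.0, limma-voom 3.58.1, other scalings and filters, a replicate block, each replicate left out, and ferritin reads with pseudogenes. Adding the reads of all genes that share sequence was chosen after seeing the data. The rule for named genes takes all members, and of each role list up to 4 genes with the smallest adjusted p per cell type and the 2 with the smallest interaction p. Aco1, Ireb2, Tfr2 and genes given for a cell type in which the rule does not name them were chosen after their values were seen. The members and lists were chosen with earlier results of these data known.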

Additional observations from a re-analysis of the deposited data

Results flagged for a closer look

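In all, 8 members responded to the medium differently in MEFs and in Hepa1 by the interaction test of edgeR. The difference, MEF minus Hepa1 on the log2 scale, was -3.09 for Trf, 2.01 for Ftl1, 1.41 for Tfrc, 1.21 for Slc40a1, 0.86 for Cp, -0.59 for Slc39a14, 0.40 for Slc11a2 and 0.36 for Fth1. For Trf, Ftl1, Tfrc and Slc39a14 the changes had opposite signs in the cell types and were called in both. The Ftl1 values are given within the limits of its shared sequence. For Slc40a1, Cp and Fth1 they had the same sign and were larger in MEFs. For Slc11a2 a change was called in Hepa1 alone. Cell type and Bach1 genotype cannot be told apart in this difference.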

How the results depend on the processing

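The counts of called members and of other called iron genes stayed within 1.5 times their values under all alternatives run, and the within-library ratios kept their direction. Of the members' single values, 379 under other settings and 472 with a replicate left out kept their direction and side of the threshold. In all, 12 turned in sign. In 3 of these the value was called before or after the turn. Without scaling, Fth1 between cell types in control medium went to -0.11 and Slc40a1 in ferroptotic medium to -0.53. With the reads of Gm6768, Ncoa4 between cell types in ferroptotic medium went to -0.12. The others were called under neither setting. Ncoa4 in MEFs went to 0.0101 with the reads of Gm6768. Slc11a2 in MEFs went to 0.0623 without scaling and ran from -0.0575 to 0.0345 with a replicate left out. Steap4 between cell types in control medium went to -0.28 without scaling. Slc40a1 between cell types in ferroptotic medium went to -0.0072 without a count filter and -0.0232 with the replicate block, and ran from -0.0118 to 0.0441 with a replicate left out. The reads of Gm6768 also brought Ncoa4 past the threshold in Hepa1 (0.30) and in the interaction (-0.30). Leaving out 1 library ended the Fth1 call in Hepa1 and brought the Steap4 interaction past the threshold in 3 cases. Replicate numbers did not pair the samples: same-numbered libraries' deviations correlated at -0.0143 to 0.0405. With a replicate block, 6 members were higher and 3 lower in Hepa1, and 6 higher and 2 lower in MEFs, as without it. Low read counts limit Steap4, Ncoa4 and, in MEFs, Ftl1, which rest on 26 to 352 reads per library. Ftl1 and Ncoa4 are also limited by shared sequence, since reads that map to several places were not counted.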

Other observations

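Further genes of iron sensing were low but differed between the groups. Tfr2, the second transferrin receptor and an iron sensor of liver, was at 0.723 ± 0.132 CPM in Hepa1 control medium and 1.39 ± 0.266 in ferroptotic medium (SD, n = 3), a log2 change of 0.94 (adjusted p = 0.00374, edgeR). In MEFs it was at 1.17 ± 0.0950 and 0.466 ± 0.0696 CPM (log2 -1.31, adjusted p = 0.000154), and the responses differed by -2.25 (adjusted p = 5.7e-06). Tmprss6, a protease that restrains hepcidin, was at 0.361 ± 0.0840 CPM in Hepa1 control medium and 1.39 ± 0.400 in ferroptotic medium (log2 1.93, adjusted p = 1.07e-05). Hamp, the gene of hepcidin, had no reads in these libraries.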
